A study of Mus musculus with 16 samples.

Results

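Pla2g2a, Pla2g4a, Ptgs1, Ptgs2, Ptgis, Hpgd, Ptger4 and Alox5 are genes of the pathway that releases arachidonic acid from membranes and turns it into prostaglandins and leukotrienes. They were followed in epithelial cells of the mouse ileum taken by laser capture, a method that cuts chosen cells out of a tissue section under a microscope. A gene was followed through every probe set whose only gene symbol in the platform annotation was that gene. Of the 8 genes, 6 had such a probe set, 1 each, so that 6 of 12422 probe sets are described, from 6 of the 8251 genes measured alone by at least 1 probe set. Ptgs1 and Alox5 were not analysed here. The 16 arrays fell into adenoma (n = 5), carcinoma (n = 5) and WT (n = 6), named as in the sample titles, and all 3 groups shared the ileal source, the capture, the 2 rounds of RNA amplification and the array type. The genotype, strain, age and treatment of the mice, what sets the tumour groups apart genetically from WT, how regions were chosen and how many animals were used are stated in none of the labels.

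In this pathway a phospholipase A2 frees arachidonic acid, the cyclooxygenases Ptgs1 and Ptgs2 convert it to an unstable prostaglandin precursor, and separate synthases turn that into prostaglandin E2, prostacyclin and related lipids. These act through receptors on the cell surface, of which Ptger4 is one for prostaglandin E2, and Hpgd begins their breakdown. In the intestine, Ptgs2 and prostaglandin E2 are known for promoting tumour growth, and the secreted phospholipase Pla2g2a, made by Paneth cells of the mouse small intestine, is known as a candidate for Mom1, a modifier locus of intestinal tumour number. Some inbred strains, C57BL/6 among them, carry a frameshift in Pla2g2a, and RefSeq lists the gene as a transcribed pseudogene in its C57BL/6J assembly. The array reads RNA, which says nothing of whether an active enzyme was made.

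Ptgs2 and Ptger4 are the members for which the promoter is shown, since both had higher mean signal in the tumour groups and belong to the prostaglandin E2 arm. The windows run from 250 bases before to 50 bases after the start of the gene in RefSeq (GRCm38.p6). Both are read 5' to 3' along the gene. Capitals mark matches to 5 motifs searched on both strands: the GC box GGGCGG, the CCAAT box CCAAT, the TATA box TATAAA, the E-box CACGTG and the cyclic AMP response element core CGTCA.
Ptgs2, chr1:150099781-150100080, plus strand: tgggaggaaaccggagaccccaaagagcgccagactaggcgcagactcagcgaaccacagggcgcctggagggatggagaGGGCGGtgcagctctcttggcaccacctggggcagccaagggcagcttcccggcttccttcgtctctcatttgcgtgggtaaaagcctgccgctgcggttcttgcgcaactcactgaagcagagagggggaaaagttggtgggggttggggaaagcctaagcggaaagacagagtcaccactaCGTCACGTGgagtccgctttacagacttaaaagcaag
Ptger4, chr15:5244138-5244437, minus strand: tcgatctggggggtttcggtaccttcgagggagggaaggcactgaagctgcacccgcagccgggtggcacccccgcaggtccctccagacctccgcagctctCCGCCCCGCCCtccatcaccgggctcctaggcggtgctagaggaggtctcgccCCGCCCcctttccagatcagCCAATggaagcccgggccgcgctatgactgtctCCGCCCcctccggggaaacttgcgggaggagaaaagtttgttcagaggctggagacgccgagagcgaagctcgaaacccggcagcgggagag
In the Ptgs2 window a GC box lies 170 bases before the start, and after the start a CGTCA begins at base 14 and overlaps a CACGTG that begins at base 17. In the Ptger4 window GC boxes on the opposite strand, which read CCGCCC here, lie at bases -148, -143, -95 and -42, with a CCAAT box at base -75. Of 32851 RefSeq windows of the same length, 35.7% held GGGCGG, 37.4% CCAAT, 13.6% TATAAA, 7.15% CACGTG and 20.8% CGTCA. The matches are letters in a window, and no factor binding was measured. Windows were found for 6 of the 8 members.

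Each deposited value was a linear intensity, with a trimmed mean between 500.3 and 500.4 on each array and a median between 126.8 and 234.2. An intensity under 46.9 was treated as a floor (5.55 on the log2 scale). Differences below are on the log2 scale after that floor, from a limma fit to 7455 genes with 13 residual degrees of freedom, and adjusted p-values are Benjamini-Hochberg values over all 7455. No label ties an array to an animal, so p-values measure the spread between captured samples and are too small where samples share an animal. The mean log2 signal of the spike-in controls was 11.38 to 13.47 in adenoma, 11.56 to 12.70 in carcinoma and 12.44 to 14.73 in WT. In 4 of the 6 WT arrays (WT 1, 2, 4 and 5) it lay above every tumour array. The log2 ratio of 3' to 5' Gapdh signal, a measure of RNA length, was 5.52 to 6.12 in adenoma, 4.95 to 6.45 in carcinoma and 4.09 to 5.02 in WT. These measures moved with the groups. Fits with each of them as a covariate are given below. Because the measures moved with the groups, such fits cannot tell their part in the results from that of the groups. The summed intensity of 12 epithelial markers was 76719 to 115812 in adenoma, 59063 to 130799 in carcinoma and 101248 to 223409 in WT, and none of the 12 was at the floor on all arrays of a group.

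Between adenoma and WT, 1 of the 6 members passed the test, against 8.28% of all genes, and between carcinoma and WT 2 of 6 did, against 9.05%. The median difference of the 6 members was 0.73 in adenoma and 1.18 in carcinoma, against -0.14 over all genes in both comparisons. Both comparisons use the same WT arrays and are therefore not independent. In captured samples, fewer cells of a type and less RNA per cell cannot be told apart.

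Pla2g2a, the secreted group IIA phospholipase A2, had the largest change of the members. Its intensity was 1982.1, 7630.5, 1910.7, 4519.5 and 3324.1 in the 5 adenoma arrays. The carcinoma arrays read 3091.4, 4380.8, 1742.6, 8262.5 and 9076.4. In WT the lowest array read 169.6, the median was 389.65 and the highest read 666.5. Every tumour array lay above every WT array, and 5.79% of all genes had groups that did not overlap between adenoma and WT, 6.28% between carcinoma and WT. The mean log2 intensity was 11.72 ± 0.84 in adenoma (SD, n = 5), 12.12 ± 0.995 in carcinoma (SD, n = 5) and 8.59 ± 0.74 in WT (SD, n = 6). Pla2g2a rose 8.75-fold in adenoma (log2 difference 3.13 ± 0.47 SE, adjusted p = 0.000277 by limma), the gene ranked 28 of 7455 from the most raised downwards. It rose 11.6-fold in carcinoma (3.54 ± 0.47, adjusted p = 6.61e-05 by limma), where it ranked 16. The highest array of each group was 3.99-fold over the lowest in adenoma, 5.21-fold in carcinoma and 3.93-fold in WT, so the spread within a group was smaller than the distance to WT.

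**Figure D1:**
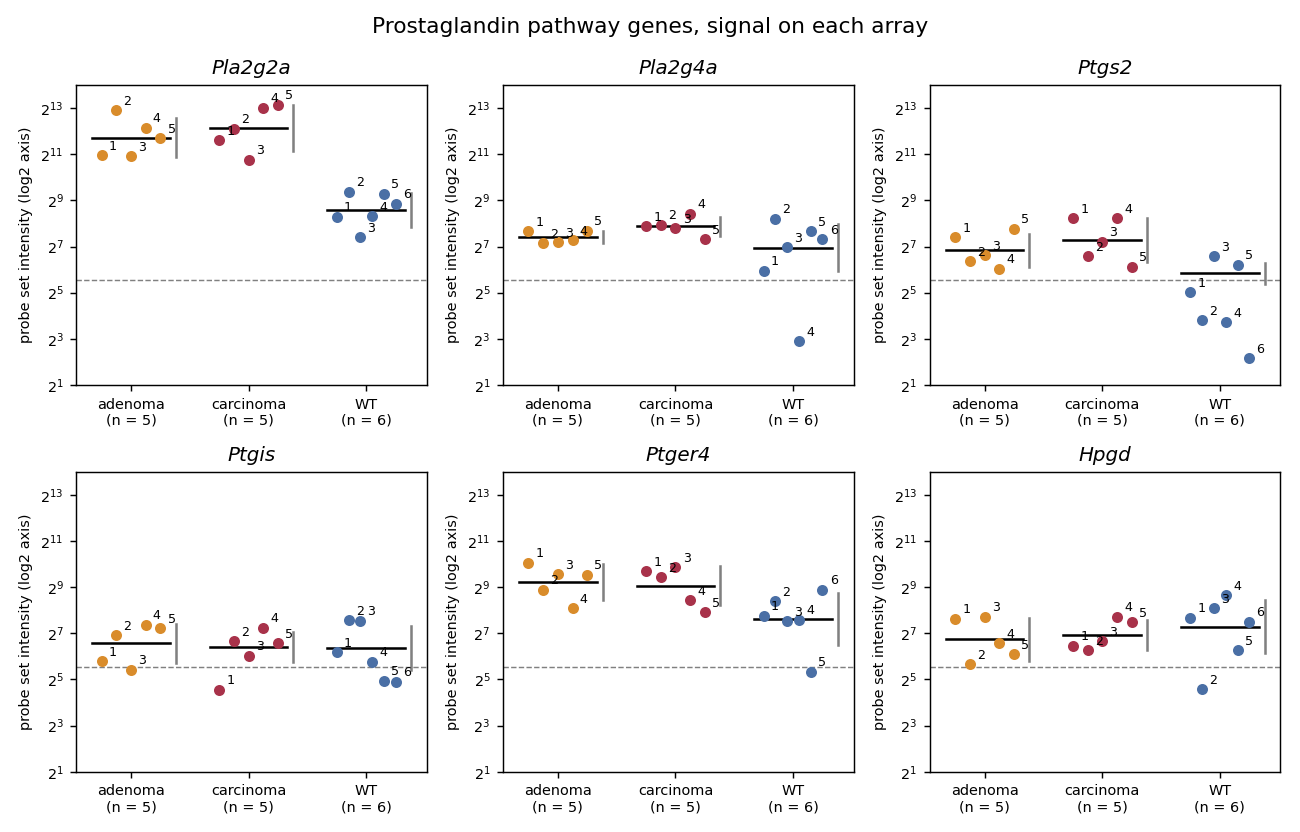
Intensity of each of the 6 measured members on every array, on a log axis, in adenoma (n = 5), carcinoma (n = 5) and WT (n = 6). Points are arrays with their replicate numbers, black lines are group means of the floored log2 values, grey bars are ± 1 SD, and the dashed line is the floor of 46.9. The Pla2g2a points of the tumour arrays lie at 1742.6 or more, and no WT point exceeds 666.5.

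The Pla2g2a call held in 30 of 31 alternative settings in both comparisons. It was lost with the Gapdh ratio as a covariate, where the difference was 2.36 ± 0.80 in adenoma (adjusted p = 0.265 by limma) and 2.83 ± 0.75 in carcinoma (adjusted p = 0.0781 by limma). Without WT 1, 2, 4 and 5 it was 3.59 ± 0.67 in adenoma (adjusted p = 0.0100 by limma) and 3.99 ± 0.67 in carcinoma (adjusted p = 0.00359 by limma).

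Paneth cells are a source of Pla2g2a in the mouse ileum, so their other markers stand beside it. Of 15 Paneth cell markers, 7 had a probe set and 6 were tested. In each comparison with WT, 1 rose and 1 fell, and only 1 of the 6 differences was above 0. The median of the 6 was -0.65 in adenoma and -0.46 in carcinoma, against -0.14 over all genes in both comparisons. Reg3g, Itln1, Clps and Mptx1 had differences below 0 in both comparisons, none of which passed. The matrix metalloproteinase Mmp7, which activates Paneth cell defensins, rose by 2.46 in adenoma (adjusted p = 0.000432 by limma) and by 2.73 in carcinoma (adjusted p = 0.000125). The antimicrobial lectin Reg3a had a difference of -3.39 in adenoma (adjusted p = 9.58e-05) and -5.36 in carcinoma (adjusted p = 3.15e-07). The summed intensity of the 7 markers was 8097.8 to 15869.6 in adenoma, 9103.6 to 16833.1 in carcinoma and 6143.6 to 21026.2 in WT. Those ranges overlap, and Defa24, a Paneth cell defensin, was at the floor in all carcinoma arrays. The part of Paneth cells in the Pla2g2a change was not tested.

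Pla2g4a, the cytosolic phospholipase A2 that acts on membranes when calcium rises, supplies arachidonic acid inside the cell. It read 201.9, 142.6, 145.9, 155.7 and 206.8 in adenoma and 234.4, 245.9, 222.9, 342.1 and 159.0 in carcinoma, and in WT the lowest was 7.4, the median 142.55 and the highest 296.1. The groups overlapped, and only WT 4 lay below the floor. The log2 difference was 0.45 ± 0.39 in adenoma (95% interval -0.36 to 1.27, adjusted p = 0.508 by limma) and 0.93 ± 0.39 in carcinoma (0.11 to 1.74, adjusted p = 0.149 by limma). Neither passed the threshold.

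Ptgs2, the inducible cyclooxygenase, read 169.0, 82.6, 98.8, 65.8 and 218.1 in adenoma. In carcinoma it read 299.8, 95.2, 148.6, 300.3 and 69.8. In WT the lowest array read 4.5, the median was 23.1 and the highest read 95.2. All 10 tumour arrays were above the floor, and among WT arrays only WT 3 and WT 5 were. The ranges nevertheless overlapped, since the lowest arrays of both tumour groups lay below the highest WT array. Ptgs2 rose in carcinoma, 2.72-fold (log2 difference 1.44 ± 0.41, 95% interval 0.59 to 2.29, adjusted p = 0.0308 by limma). In adenoma the difference was 1.01 ± 0.41 (95% interval 0.16 to 1.86, adjusted p = 0.143 by limma) and did not pass. With 4 of 6 WT arrays at the floor, both differences depend on where the floor was set. With the floor at the 10th percentile they were 1.88 (adjusted p = 0.0532) in adenoma and 2.31 (adjusted p = 0.0163) in carcinoma. With the floor at the 40th percentile the carcinoma call was lost. Ptgs2 passed the filter on low values through its tumour arrays.

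The Ptgs2 call in carcinoma was lost in 12 of 31 settings, with differences between 0.64 and 2.38 over all 31. The call went when WT 1, WT 2 or WT 4 was left out (1.39 each, adjusted p = 0.0570 to 0.0609 by limma) and when carcinoma 1 (1.2, adjusted p = 0.0954), carcinoma 3 (1.46, adjusted p = 0.0548) or carcinoma 4 (1.2, adjusted p = 0.0960) was. With spike-in signal as a covariate the difference was 1.01 (adjusted p = 0.326).

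Ptgis, which makes prostacyclin, read 55.0, 120.8, 42.7, 166.4 and 149.1 in adenoma and 23.5, 100.7, 65.1, 151.7 and 94.7 in carcinoma, with a lowest of 30, a median of 63.75 and a highest of 190.1 in WT. The groups overlapped throughout. The difference was 0.21 ± 0.46 in adenoma (95% interval -0.76 to 1.17, adjusted p = 0.824 by limma) and 0.05 ± 0.46 in carcinoma (-0.92 to 1.01, adjusted p = 0.964 by limma), neither of which passed, and the sign turned in some settings.

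Ptger4, the prostaglandin E2 receptor that raises cyclic AMP, read 1071.8, 474.7, 756.6, 270.7 and 742.5 in adenoma. It read 824.0, 685.7, 923.3, 345.9 and 239.0 in carcinoma. In WT the lowest array read 40.3, the median was 204.95 and the highest read 472.1. In adenoma 4 of 5 arrays, and in carcinoma 3 of 5, lay above every WT array, and adenoma 4, carcinoma 4 and carcinoma 5 lay within the WT range. The difference was 1.61 ± 0.51 in adenoma (3.06-fold, adjusted p = 0.0593 by limma) and 1.45 ± 0.51 in carcinoma (2.72-fold, adjusted p = 0.0871 by limma), and neither passed. The adenoma value passed in 9 of 31 settings, among them with arrays quantile normalized (1.72, adjusted p = 0.0466), without WT 6 (1.87, adjusted p = 0.0290), without adenoma 4 (1.90, adjusted p = 0.0312) and without carcinoma 5 (1.61, adjusted p = 0.0494). The carcinoma value passed in 3, among them without WT 6 (1.70, adjusted p = 0.0404). With spike-in signal in the fit the difference was 0.48 in adenoma (adjusted p = 0.702) and 0.30 in carcinoma (adjusted p = 0.843).

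The tumour arrays with the lowest Ptger4 intensity were not those with the lowest Pla2g2a. Adenoma 4, carcinoma 4 and carcinoma 5, the lowest for Ptger4, read 4519.5, 8262.5 and 9076.4 for Pla2g2a, each above the median of its own group. Adenoma 1 and 3, the highest for Ptger4 in adenoma, read 1982.1 and 1910.7 for Pla2g2a. The spike-in signal was 13.5 in adenoma 4 and 12.7 in both carcinoma 4 and carcinoma 5, the highest of their groups. In adenoma 1 and 3 it was 11.9 and 11.4. These are single arrays. The relation between the 2 genes and the part of the spike-in signal in it were not tested.

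Hpgd, the dehydrogenase that inactivates prostaglandin E2, read 197.1, 50.2, 211.5, 95.8 and 68.0 in adenoma and 87.9, 76.8, 101.5, 209.9 and 177.2 in carcinoma, with a lowest of 24, a median of 192.8 and a highest of 399 in WT. Its mean was lower in both tumour groups, but the groups overlapped. The difference was -0.55 ± 0.51 in adenoma (95% interval -1.63 to 0.52, adjusted p = 0.544 by limma) and -0.37 ± 0.51 in carcinoma (-1.45 to 0.70, adjusted p = 0.692 by limma), and neither passed.

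**Figure D2:**
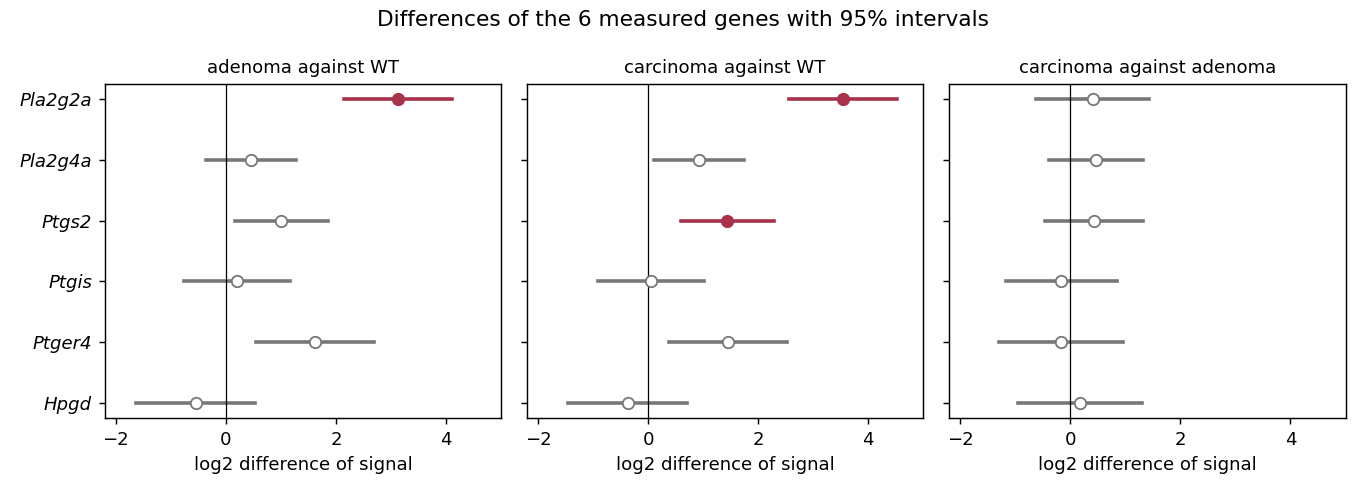
Log2 difference of each measured member in adenoma against WT, carcinoma against WT and carcinoma against adenoma, with 95% intervals from limma. Filled points passed an adjusted p of 0.05. Pla2g2a passed in both comparisons with WT (3.13 and 3.54), Ptgs2 in carcinoma against WT (1.44), and no member in carcinoma against adenoma.

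None of the 6 members passed between carcinoma and adenoma, against 0.0268% of all genes (2 of 7455), and every member's adjusted p was 1 by limma. At an unadjusted p of 0.05 none passed either. Pla2g2a differed by 0.41 ± 0.49 (95% interval -0.62 to 1.43). The groups overlapped for every member, and 0.537% of all genes had groups that did not. The other differences were 0.47 for Pla2g4a, 0.43 for Ptgs2, 0.18 for Hpgd, -0.16 for Ptgis and -0.17 for Ptger4.

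Of 61 other genes listed for the same pathway, 39 had a probe set and 34 were tested. Between adenoma and WT 3 rose and 4 fell, 7 of 34 called against 8.28% of all genes, and between carcinoma and WT 3 rose and 2 fell, 5 of 34 against 9.05%. The median difference was -0.08 in adenoma and -0.06 in carcinoma, against -0.14 over all genes. None passed between carcinoma and adenoma. These counts of calls were 0 and 0 with the Gapdh ratio in the fit, 3 and 3 with the spike-in signal in it, and 1 and 2 without WT 1, 2, 4 and 5.

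Of 13 phospholipases A2 and genes of arachidonate supply that were tested, 2 rose in both comparisons. Pla2g12a, a secreted phospholipase A2, rose by 2.10 ± 0.35 in adenoma (adjusted p = 0.000779 by limma) and by 2.17 ± 0.35 in carcinoma (adjusted p = 0.000438). Its intensity was 37882 to 55293 in adenoma, 36599 to 58575 in carcinoma and 4115.2 to 22413 in WT, so the groups did not overlap. The probe set is of a kind that can also detect related transcripts. A second, of 353.5 to 743.2, 313.2 to 436.8 and 10 to 267.6 in the same groups, rose by 3.05 and 2.57. Its signal was far lower, with a median of 540.7 against 46330 in adenoma. Whether both probe sets read the same transcript was not tested. Fads1, a desaturase on the route to arachidonic acid, rose by 0.92 ± 0.25 in adenoma (adjusted p = 0.0272) and by 0.99 ± 0.25 in carcinoma (adjusted p = 0.0153). The adenoma call was lost without WT 1 or 2 or without adenoma 2, 3, 4 or 5 (0.80 to 0.94, adjusted p up to 0.0806). With the Gapdh ratio in the fit the Fads1 differences were 0.38 in adenoma (adjusted p = 0.806) and 0.51 in carcinoma (adjusted p = 0.658), and neither passed.

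The monoacylglycerol lipase Mgll, which frees arachidonic acid from an endocannabinoid, fell by 1.52 ± 0.31 in adenoma (adjusted p = 0.00421 by limma) and fell by 1.19 ± 0.31 in carcinoma (adjusted p = 0.0211). Its second probe set did not pass (-1.07, adjusted p = 0.0995, and -0.93, adjusted p = 0.150). The carcinoma call was lost without carcinoma 1 (-1.04, adjusted p = 0.0654) or 3 (-1.08, adjusted p = 0.0588). With spike-in signal in the fit the Mgll differences were -0.69 (adjusted p = 0.159) and -0.35 (adjusted p = 0.550). Pla2r1, a receptor that binds secreted phospholipases, fell by 1.74 ± 0.46 in adenoma (adjusted p = 0.0255), and its carcinoma difference was -1.39 ± 0.46 (adjusted p = 0.0695). Its adenoma call was lost without WT 2 or 3 or without adenoma 1, 4 or 5 (-1.51 to -1.71, adjusted p = 0.0549 to 0.0747), with the spike-in signal in the fit (-1.41, adjusted p = 0.214) and with the floor at the 40th percentile (-1.02, adjusted p = 0.0964). Its carcinoma difference passed without WT 4 (-1.59, adjusted p = 0.0455) or 6 (-1.60, adjusted p = 0.0366).

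None of the 5 tested prostanoid synthases passed in either comparison. The smallest p among them was that of Ptges, the inducible prostaglandin E synthase, with 0.93 ± 0.46 in adenoma (adjusted p = 0.238 by limma) and 0.83 ± 0.46 in carcinoma (adjusted p = 0.280). Of 2 tested genes of breakdown and transport, Ptgr1, a reductase of prostaglandins and leukotriene B4, rose by 1.86 ± 0.44 in adenoma (adjusted p = 0.0127) and by 1.80 ± 0.44 in carcinoma (adjusted p = 0.0139). Its intensity was 607.9 to 3883.5 in adenoma, 1063.1 to 3457 in carcinoma and 218.3 to 986 in WT, and only the carcinoma and WT arrays did not overlap. With spike-in signal in the fit its differences were 0.87 and 0.81, and neither passed (adjusted p = 0.320 and 0.382).

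Of 8 other prostanoid receptors, 6 were tested. Ptgfr, the receptor of prostaglandin F2, fell by 1.27 ± 0.36 in adenoma (adjusted p = 0.0334 by limma), and its carcinoma difference was -1.10 ± 0.36 (adjusted p = 0.0615). The adenoma call was lost without WT 4, 5 or 6 or without adenoma 1, 3 or 5 (-1.11 to -1.32, adjusted p = 0.0512 to 0.0960), and its second probe set did not pass. It was also lost with the spike-in signal in the fit (-0.81, adjusted p = 0.334) and with the floor at the 40th percentile (-0.52, adjusted p = 0.141). The carcinoma difference passed without WT 1 (-1.26, adjusted p = 0.0370) or without carcinoma 4 (-1.40, adjusted p = 0.0152). Ptger1 and Ptger2, the other tested receptors of prostaglandin E2, differed by -0.28 and -0.36 in adenoma and by -0.45 and 0.13 in carcinoma, none of which passed. Ptger1 was above the floor in 1 adenoma, 0 carcinoma and 5 WT arrays, and Ptger2 in 3, 4 and 3. The differences of both therefore depend on where the floor was set.

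Of 11 lipoxygenase and leukotriene genes with a probe set, 8 were tested. Dpep1, a dipeptidase that converts leukotriene D4 and is made by enterocytes, fell by 2.16 ± 0.45 in adenoma (adjusted p = 0.00483 by limma) and fell by 2.87 ± 0.45 in carcinoma (adjusted p = 0.000352). Its intensity was 34.4 to 211.6 in adenoma, 39.1 to 162.2 in carcinoma and 257.4 to 1011.2 in WT, with no overlap between tumour and WT arrays. No other gene of that list passed.

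**Figure D3:**
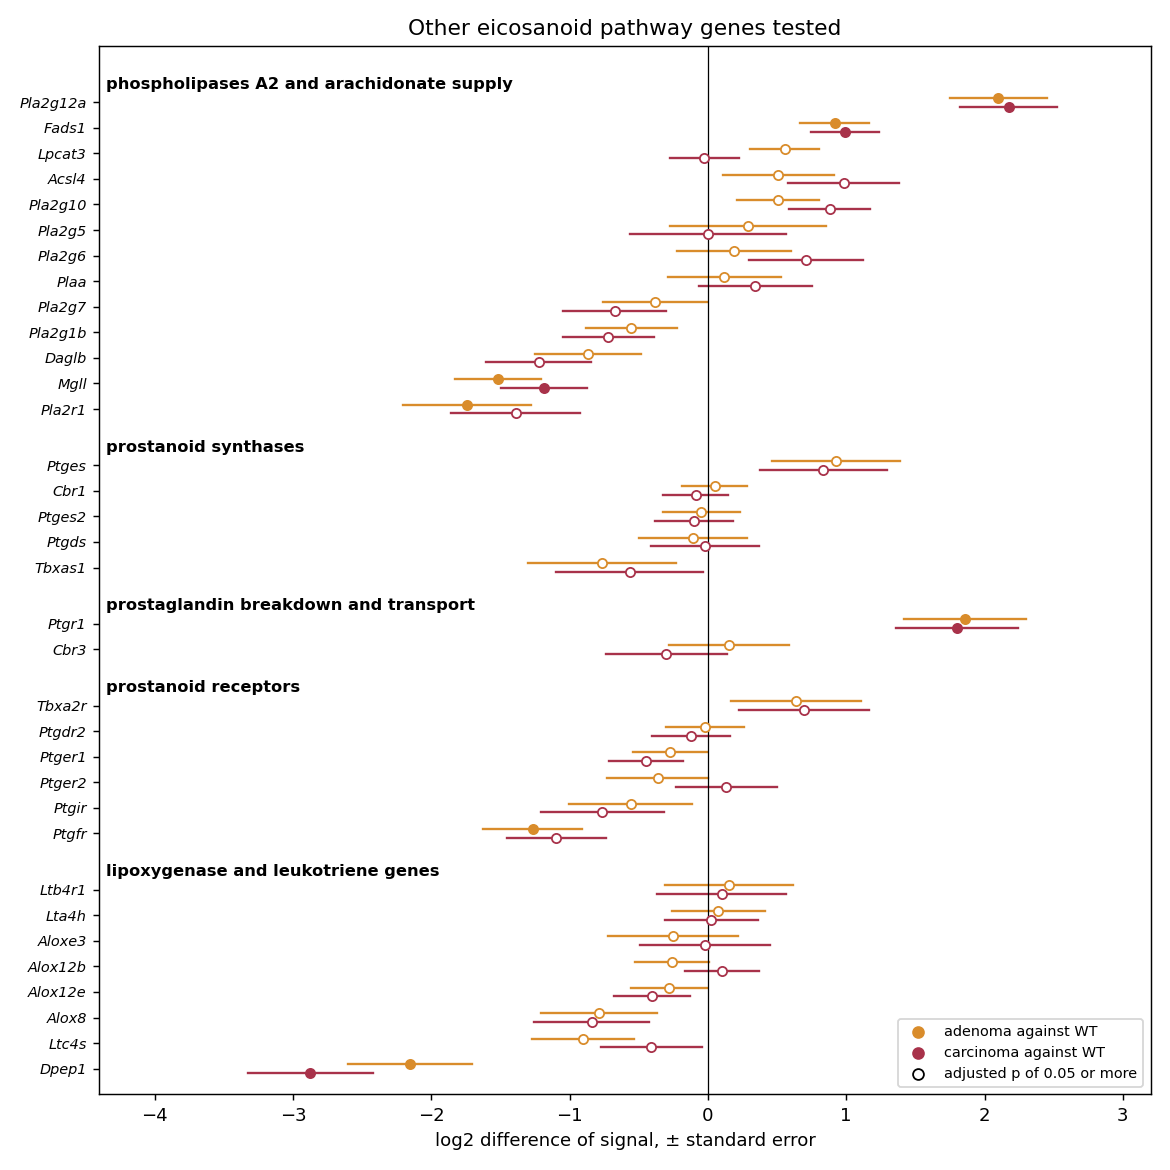
Log2 difference ± SE of the 34 other pathway genes tested, in adenoma and carcinoma against WT, grouped by role. Filled points passed an adjusted p of 0.05. Pla2g12a, Fads1 and Ptgr1 lie to the right and Mgll, Pla2r1, Ptgfr and Dpep1 to the left, and none of the 5 synthases passed.

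Other cell types also make or answer to prostaglandins, and markers of some moved with the groups. The 12 mast cell markers with a probe set had summed intensities of 4528.4 to 9470.3 in adenoma, 2656.3 to 4834.3 in carcinoma and 1493.8 to 2745.8 in WT. Of 9 tested, 3 rose in each comparison with WT. These were the mast cell proteases Mcpt2 (5.32 in adenoma, 3.76 in carcinoma) and Mcpt1 (4.44 and 3.96), and carboxypeptidase Cpa3 (2.90 and 1.61, the carcinoma value not passing with spike-in signal in the fit). The other 6 did not pass, and their differences ran from -0.82 (Ms4a2) to 1.21 (Cma1) in adenoma and from -0.88 (Ms4a2) to 0.30 (Fcer1a) in carcinoma. The median of the 9 was 0.96 in adenoma and 0.22 in carcinoma, where 5 of 9 differences were above 0. Hdc, which makes histamine, and the proteases Mcpt4 and Tpsab1 were above the floor in too few arrays to be tested. Hdc was at the floor in all adenoma arrays, and Mcpt4 and Tpsab1 were at the floor in all carcinoma and WT arrays. Mast cells make prostaglandins, and their part in the results was not tested.

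Of 3 tuft cell markers with a probe set, 1 rose, Avil, by 2.95 in adenoma and by 2.67 in carcinoma. The other two, which did not pass, had differences below 0, with -0.83 and -0.85 for Pou2f3 and -0.53 and -0.65 for Gfi1b, so the median of the list was below 0 in both comparisons. The summed intensity of the 3 was 847.8 to 1473.6 in adenoma, 616 to 1842.3 in carcinoma and 392.2 to 1142.1 in WT. Of 16 tested macrophage and neutrophil markers, none passed in either comparison. Their summed intensity was 7781.6 to 14965 in adenoma, 10482 to 16727 in carcinoma and 5825.9 to 20839 in WT, and Itgam was at the floor in every group. Some fibroblast, endothelial, smooth muscle and lymphoid markers passed, where 8.28% of all genes were called in adenoma and 9.05% in carcinoma. In adenoma 1 of 9 endothelial and 1 of 8 smooth muscle markers tested rose. There 2 of 8 smooth muscle and 4 of 10 lymphoid markers fell. In carcinoma 2 of 11 fibroblast markers rose, and 1 of 11 fibroblast, 2 of 8 smooth muscle and 2 of 10 lymphoid markers fell. Of the 12 epithelial markers, 2 fell in each tumour group, beside the same shares of all genes.

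The genes whose log2 signal was most like that of each member across the 16 arrays are given as a description, by Pearson's r among 7454 genes. Genes with clone names (Rik, Gm) were passed over, so a gene more alike may be missing from these lists. The arrays share their groups, so any gene that moves between WT and tumour scores high. For Pla2g2a they were Lamb3 (0.97), a laminin chain, Mmp14 (0.95), a membrane metalloproteinase, Fxyd3 (0.94), S100a6 (0.94) and Mmp7 (0.94). For Ptgs2 they were Lamtor5 (0.87), the collagenase Mmp13 (0.86), Rnf149 (0.85), Prdx4 (0.85) and Gng10 (0.81). For Ptger4 they were Rcn1, Cnot2, Dsg2, Rnf4 and Atp6v1b2, at 0.93 to 0.94. Pla2g4a was most like Pparg (0.85), a nuclear receptor, then Capn6, Aplp2, Arhgef3 and Gtf2e2. Hpgd was most like Npr3 (0.82), then Efna2, Uap1, Acaa1b and Cdkn2a. Ptgis was most like Rrm2 (0.79), then Abcc9, Pla2g5, Ggcx and Abca4.

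**Figure D4:**
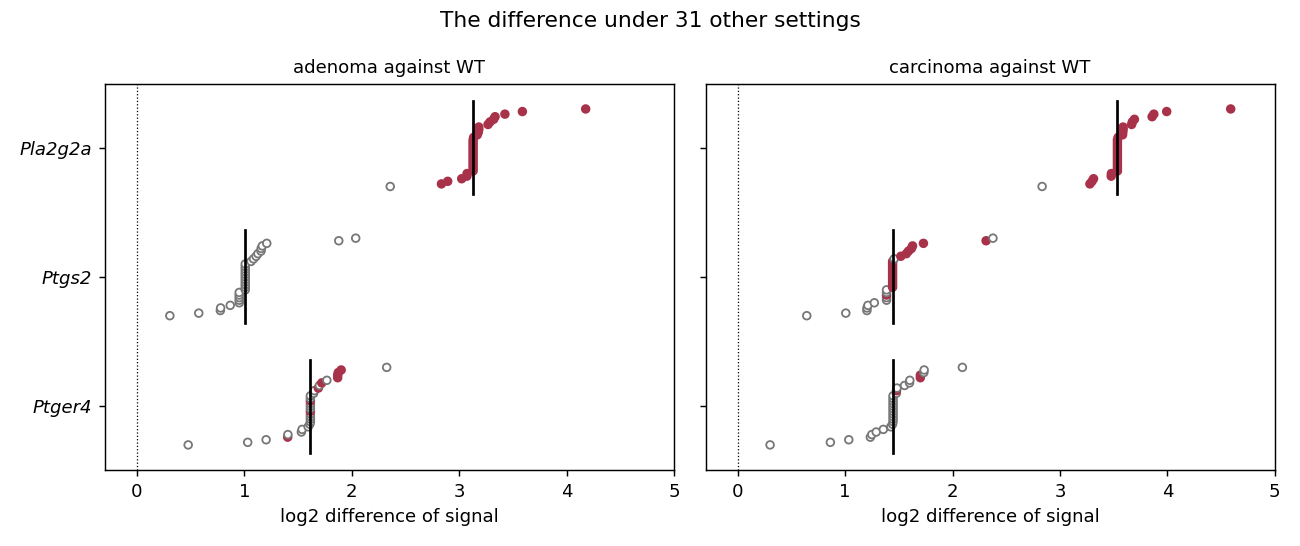
Log2 difference of Pla2g2a, Ptgs2 and Ptger4 against WT in adenoma and carcinoma, with 1 point for each of 31 alternative settings and a black line at the value as reported. Filled points passed an adjusted p of 0.05. Pla2g2a stays between 2.36 and 4.18 in adenoma and between 2.83 and 4.59 in carcinoma, Ptgs2 passes in carcinoma in 19 settings, and Ptger4 passes in 9 in adenoma and 3 in carcinoma.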

How the data were processed

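RNA from laser-captured ileal epithelial cells was amplified in 2 rounds and hybridised to Affymetrix MG_U74Av2 arrays, per the labels' protocols. The authors deposited 1 linear intensity per probe set and array (12488 probe sets, 66 of them controls), scaled to a trimmed mean near 500.3. No source used here names the software. Here, Here, intensities were floored at the 25th percentile (46.9), log2 was taken, and no further normalization was made. Each gene was read from its probe set of highest mean, and genes over that floor in 5 or more of the 16 arrays were tested with limma 3.58.1 in R 4.3.3, all 3 groups in 1 fit, at an adjusted p of 0.05. By the platform annotation, 10833 probe sets had 1 symbol, 396 had several and 1193 were not listed. For 10817 the symbol was replaced by the RefSeq symbol of the same Entrez identifier. The fit was also run on simulated data with noise independent between arrays, which does not cover arrays that share an animal. Named were the members, pathway genes past the threshold or of the smallest p in a list, and up to 3 marker genes a list. The 5 genes most like each member, clone names (Rik, Gm) left out, were named too. Members and lists were chosen with earlier results of these data known. No arrays were identical. Alternatives changed the normalization, floor, filter, probe set rule, variance model, covariates and arrays used.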

Additional observations from a re-analysis of the deposited data

How the results depend on the processing

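Replicate numbers gave no clear pairing of the arrays. The correlation of same-numbered arrays ran from -0.27 to 0.40, with 7 of 15 pairs over 0.1, and 3 of 16 arrays were closest to their own number. These values cannot exclude a pairing, since the labels do not say whether same-numbered arrays share an animal or a batch. With the replicate block, 2 members passed in adenoma, Ptger4 passed in both comparisons (1.87, adjusted p = 0.0139, and 1.70, adjusted p = 0.0196, by limma) and Ptgs2 in carcinoma had 1.39 (adjusted p = 0.0603). Members called in adenoma numbered 2 with quantile normalization, medians aligned, the floor at the 40th percentile, array weights or a variance trend, 0 with the Gapdh covariate, and 1 to 2 with an array left out. Members called in carcinoma numbered 1 with the 40th percentile floor, with the spike-in covariate or without WT 1, 2, 4 and 5, 0 with the Gapdh covariate, and 1 to 3 with an array left out. With the Gapdh covariate Pla2g2a had 2.36 in adenoma and 2.83 in carcinoma. Other pathway genes called (7 and 5 as reported) numbered 0 and 0 with the Gapdh covariate, 3 and 3 with the spike-in covariate, 1 and 2 without those 4 WT arrays, 8 in carcinoma with array weights, and 4 to 7 in adenoma with an array left out. All genes called (617 and 675) numbered 70 and 100 with the Gapdh covariate, 398 and 382 with the spike-in covariate, 181 and 209 without those 4 WT arrays, and 384 to 674 in adenoma with an array left out. Between carcinoma and adenoma (2) the numbers were 0 with the 10th and 5 with the 40th percentile floor, 1 with no filter, 4 per probe set, 18 with array weights, 6 without those 4 WT arrays, 6 with only those groups in the fit, and 1 to 5 with an array left out. Signs turned for members that did not pass: Ptgis in adenoma (-0.035 with the 40th percentile floor, -0.17 with array weights), Ptgis in carcinoma (-0.16, -0.14, -0.12 with the block, -0.14 without the 4 WT arrays, -0.16 to 0.29 with an array left out), and between carcinoma and adenoma Ptgis (0.032 with array weights, -0.42 to 0.053), Hpgd (-0.033 with the 40th percentile floor, -0.086 with array weights, -0.090 to 0.43) and Ptger4 (-0.46 to 0.12). The cause was not tested.

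Scaling set the background: the median of all genes was -0.14 in both comparisons with WT, -0.02 and -0.01 after quantile normalization, and 0.12 and 0.15 with medians aligned. The share of calls that were higher went with it, at 48.6% and 45.9%, 62.6% and 58.8%, and 75.8% and 73.7%. Pla2g2a was 3.13, 3.17 and 3.43 in adenoma and 3.54, 3.59 and 3.86 in carcinoma under these 3 scalings. The number of arrays limits the precision.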
